A study of Mus musculus with 12 samples.

Results

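The hypoxia-inducible factor (HIF) system was followed at the transcript level through 10 genes: the alpha subunits Hif1a, Epas1 and Hif3a, their dimer partner Arnt, the oxygen-sensing hydroxylases Egln1, Egln2, Egln3 and Hif1an, the ubiquitin ligase subunit Vhl and the feedback inhibitor Cited2. They were picked by symbol from 22180 named genes on the array, and each was represented by the transcript cluster, a group of probes read as 1 value, with the highest mean over all 12 arrays. All 10 had such a cluster and none was filtered out. The lungs came from C57BL/6J mice kept for 3 days at 10% oxygen in a normobaric hypoxia chamber or at 21% oxygen in the biological service unit, with no genetic alteration described for either group. Left lung lobes were taken under pentobarbitone with heparin, and each mouse gave 1 Mouse Gene 2.0 ST array (6 hypoxia, 6 normoxia). Because the chamber housed only the hypoxic mice, effects of oxygen and of housing cannot be told apart. The sex and age of the mice on the arrays are not given in their labels. Levels are the log2 signals that the authors normalised, so a difference of 1 is a doubling, and levels of different genes cannot be set against each other on an array.

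In well-oxygenated cells, prolyl hydroxylases of the Egln family mark HIF alpha subunits for capture by the VHL protein and destruction by the proteasome, while the asparaginyl hydroxylase encoded by Hif1an blocks their recruitment of the coactivators p300 and CBP. When oxygen falls, hydroxylation slows, the alpha subunits accumulate, pair with Arnt and bind the hypoxia response element of their target genes. Control therefore lies mostly in protein stability, which arrays do not read. In lung, Epas1 (HIF-2α) is abundant in endothelium, whereas Hif1a (HIF-1α) is broadly expressed. Egln3 and Cited2 are known HIF targets that feed back on the pathway.

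The arrays were alike, with correlations between 0.983 and 0.989 for any pair and median levels of 5.89 to 5.92 on hypoxia arrays and 5.89 to 5.95 on normoxia arrays. Alveolar type 2 markers, which define lung, were strong on every array, with a mean over 8 genes between 11.17 and 11.37 on hypoxia arrays and between 11.31 and 11.47 on normoxia arrays. Over all 41155 clusters, limma called 1840 (4.47%) at an adjusted p under 0.05. Among the named genes 1338 were called (6.03%), with 864 higher (3.9%) and 474 lower (2.14%) in hypoxia. These are the shares beside which the counts for the HIF genes are set.

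Of the 10 genes, 1 rose in hypoxia (Hif1a), 1 fell (Epas1) and 8 did not pass the test, a share called of 20.0% beside 6.03% of all named genes. These were also the 2 genes in which the 6 hypoxic and 6 normoxic lungs did not overlap, a pattern seen in 5.7% of named genes. The changes were small. The median size of change over the 10 genes was 0.11 on the log2 scale, against 0.08 over all named genes, and the median signed change was 0.01, against -0.01. Of the 10, Egln3 alone lay outside the range of -0.30 to 0.41 that held the central 95% of named genes, with a difference of 0.49 that did not pass after adjustment.

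**Figure D1:**
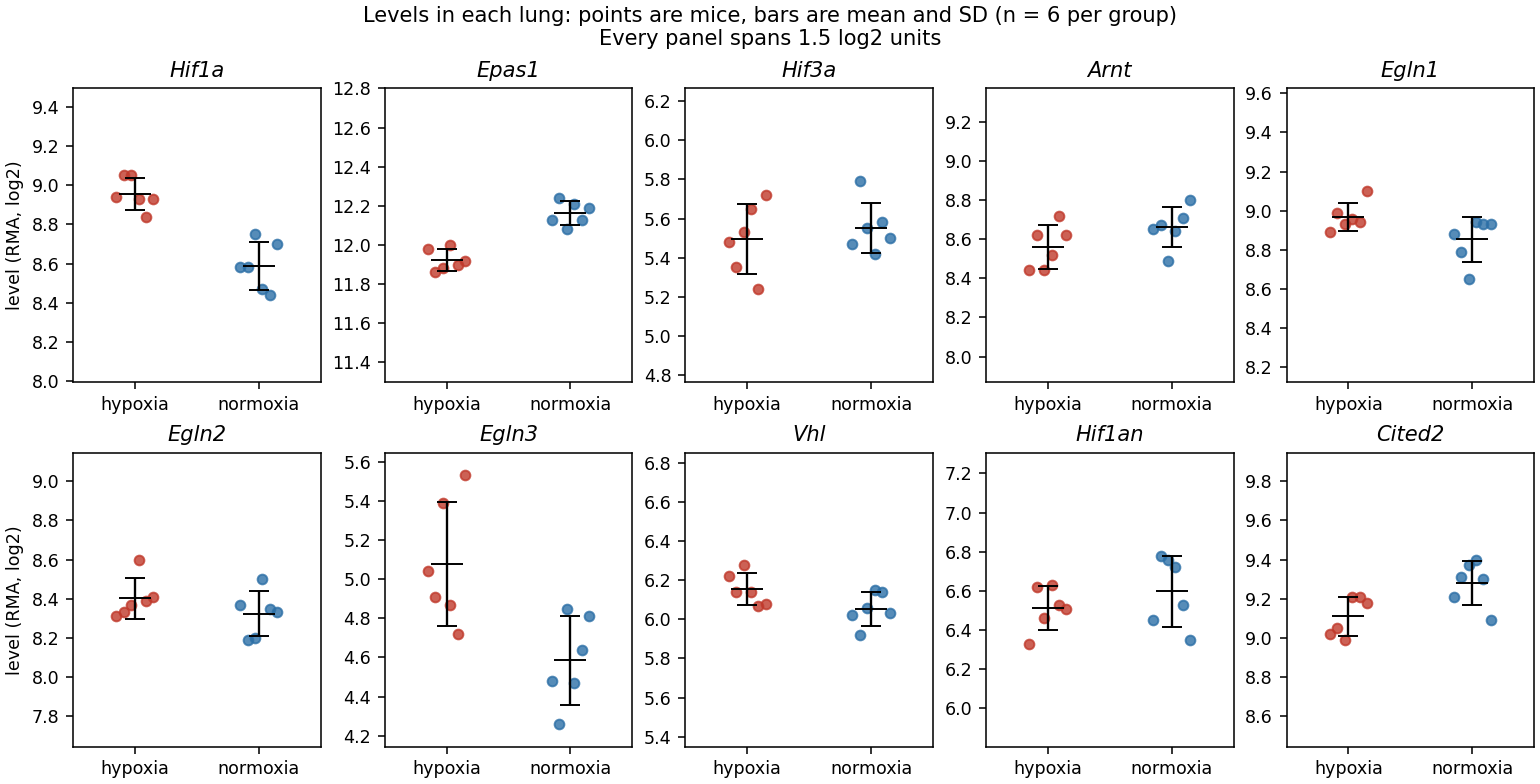
Log2 level of each of the 10 HIF-pathway genes on every array (points), with group means and SD, hypoxia left of normoxia, 6 mice per group. The hypoxic and normoxic lungs separate fully for Hif1a (8.84 to 9.05 against 8.44 to 8.75) and Epas1 (11.86 to 12.00 against 12.08 to 12.24).

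The start-site regions of 4 of these genes are shown because Hif1a is the alpha subunit that rose, Egln1 and Egln3 are the prolyl hydroxylases whose responses were compared, and Cited2 is the feedback inhibitor. Each is the 250 bases before the gene's start site, 5′ to 3′ on the gene's own strand, from RefSeq on build GRCm38.p6, with capitals marking every match to ACGTG or GCGTG, the core letters of the hypoxia response element, or their reverse complements. The windows are chr12:73907617-73907866 (+) for Hif1a, chr8:124949255-124949504 (-) for Egln1, chr12:54203875-54204124 (-) for Egln3 and chr10:17722978-17723227 (+) for Cited2.
Hif1a: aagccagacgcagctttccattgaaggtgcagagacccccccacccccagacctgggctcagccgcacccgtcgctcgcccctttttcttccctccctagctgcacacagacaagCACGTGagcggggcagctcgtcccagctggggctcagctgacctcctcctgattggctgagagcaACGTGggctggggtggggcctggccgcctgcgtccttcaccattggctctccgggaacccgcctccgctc
Egln1: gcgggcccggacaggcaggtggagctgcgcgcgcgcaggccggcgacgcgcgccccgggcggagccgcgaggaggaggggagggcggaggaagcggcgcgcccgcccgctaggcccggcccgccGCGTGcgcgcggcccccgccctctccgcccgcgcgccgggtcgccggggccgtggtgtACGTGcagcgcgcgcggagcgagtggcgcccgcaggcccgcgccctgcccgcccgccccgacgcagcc
Egln3: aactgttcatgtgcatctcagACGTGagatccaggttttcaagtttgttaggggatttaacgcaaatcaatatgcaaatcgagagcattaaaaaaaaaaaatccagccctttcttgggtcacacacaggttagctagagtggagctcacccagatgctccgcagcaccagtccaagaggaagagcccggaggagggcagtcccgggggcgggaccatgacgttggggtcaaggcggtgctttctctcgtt
Cited2: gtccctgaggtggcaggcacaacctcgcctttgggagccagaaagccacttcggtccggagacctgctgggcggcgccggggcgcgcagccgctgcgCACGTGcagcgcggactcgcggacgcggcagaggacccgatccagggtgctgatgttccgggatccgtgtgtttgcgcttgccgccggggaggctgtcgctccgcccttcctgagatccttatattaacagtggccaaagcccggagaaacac

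The Hif1a window held 3 matches to ACGTG, at 135, 134 and 70 bases before the start, where the first pair is a single CACGTG that reads as ACGTG on both strands. Cited2 held 2, at 153 and 152 bases, again a single CACGTG. Egln1 held 1 ACGTG and 1 GCGTG, at 68 and 126 bases before the start, and Egln3 held 1 ACGTG at 229 bases. In all, 9 of the 10 genes, all but Epas1, had a window in the table (10 windows, since Egln2 has 2 start sites). At least 1 core was held by 7 of these genes: Hif3a, Arnt and Egln2 besides the 4 shown. Vhl and Hif1an held none in these letters. Counted by window, 8 of the 10 held a core and 5 held ACGTG. By comparison 38.6% of 32851 windows in the mouse table held ACGTG or GCGTG on either strand, 16.6% held ACGTG and 28.2% held GCGTG. A match in these letters is a description of the sequence and says nothing of whether HIF binds there.

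Among the alpha subunits, Hif1a rose. Its log2 level was 8.84 at the lowest, 8.93 at the median and 9.05 at the highest in hypoxic lungs, against 8.44, 8.58 and 8.75 in normoxic lungs. Every hypoxic lung lay above every normoxic lung. The means were 8.96 ± 0.08 in hypoxia and 8.59 ± 0.12 in normoxia (SD, n = 6 each), a difference of 0.37 (SE 0.07, 95% confidence interval 0.23 to 0.51) or 1.29-fold, with an adjusted p of 0.00585 in limma. In whole lung, more cells that carry a transcript and more transcript per cell cannot be told apart.

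Other clusters of the array also name Hif1a and were not used to represent it. A second Hif1a cluster averaged 6.69 ± 0.13 in hypoxia and 6.31 ± 0.02 in normoxia (SD, n = 6 each), a difference of 0.38 (SE 0.06, adjusted p = 0.00392). A further cluster, which the annotation assigns to both Hif1a and the pseudogene S100a11-ps, averaged 6.05 ± 0.09 in hypoxia and 5.74 ± 0.13 in normoxia, a difference of 0.31 (SE 0.07, adjusted p = 0.0217). Neither cluster had overlap between groups, and all 3 clusters rose. Which strand each cluster reads was not given in the annotation used, so transcripts antisense to Hif1a cannot be told apart from Hif1a itself.

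The 3 genes whose profiles lay closest to that of Hif1a, after each was centred on its own mean over the 12 arrays, were Pcna, the replication clamp (root mean square difference 0.0651 on the log2 scale), Nme1, a nucleoside diphosphate kinase (0.0705), and Topbp1, a DNA replication and checkpoint protein (0.0718). Each rose in hypoxia, by 0.40, 0.40 and 0.32. Genes with Gm or Rik names were left out of this search. This likeness is over 12 arrays that also share the change between groups. The 6 measured proliferation markers all rose, and their mean level lay between 6.87 and 7.24 in hypoxic lungs against 5.76 to 6.12 in normoxic lungs. The mean levels of the macrophage and monocyte list and of the neutrophil list overlapped between groups. The mean of 10 macrophage and monocyte genes lay between 8.07 and 8.39 in hypoxia against 7.92 to 8.32 in normoxia. Of these, 1 rose (C1qb, by 0.80) and 1 fell (Siglecf, by 0.47). C1qb did not overlap between groups (8.44 to 8.89 in hypoxia against 7.70 to 8.16 in normoxia). The mean of 7 neutrophil genes lay between 7.75 and 8.44 against 7.38 to 8.31 (none passed). Set against the macrophage and monocyte mean on the same array, Hif1a was higher in hypoxia by 0.25 (exact permutation p = 0.0736, two-sided), and set against the neutrophil mean by 0.07 (exact p = 0.805). Both comparisons were added after seeing the data, and their p-values were not adjusted. The part of dividing cells in the Hif1a value was not tested.

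Epas1, which encodes the alpha subunit HIF-2α, moved the other way. Its level was 11.86 at the lowest, 11.91 at the median and 12.00 at the highest in hypoxic lungs, against 12.08, 12.16 and 12.24 in normoxic lungs. All 6 hypoxic lungs lay below all 6 normoxic lungs, over a narrow span. The means were 11.92 ± 0.06 in hypoxia and 12.16 ± 0.06 in normoxia (SD, n = 6 each), a difference of -0.24 (SE 0.05, 95% confidence interval -0.35 to -0.13) or 0.847-fold, with an adjusted p of 0.0134. Epas1 had 1 of the tightest spreads on the array, and its pooled SD of 0.06 exceeded that of 2.93% of named genes. With the replicate number as a block, a number that nothing shows to pair these mice, its adjusted p was 0.081.

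Epas1 is abundant in endothelium, so the endothelial markers are given beside it. Of 12 measured, 2 rose (Vwf, the clotting adhesion protein, by 0.41, and Emcn, a surface mucin, by 0.31) and 3 fell (Eng, a TGF-β family co-receptor, by 0.67, Kdr, the main VEGF receptor, by 0.39, and Tek, the angiopoietin receptor, by 0.27). With each array centred on its median, 2 rose and 2 fell, and after quantile normalisation 1 rose and 3 fell. Their mean level lay between 10.10 and 10.22 in hypoxic lungs against 10.20 to 10.40 in normoxic lungs. Epas1 relative to that mean was lower in hypoxia by a difference of -0.14 (exact permutation p = 0.00433, two-sided). It lay 1.67 to 1.83 above that mean in hypoxic lungs against 1.82 to 1.93 in normoxic lungs. This comparison was added after the fall of Epas1 had been seen, and its p was not adjusted. By the same search, the genes with profiles nearest to that of Epas1 were Ccpg1 (root mean square difference 0.0409), Usp3, a deubiquitinase (0.0440), and Ctnnd1, the junctional protein p120-catenin (0.0451). Ccpg1 and Ctnnd1 fell, by 0.25 and 0.26, and Usp3 differed by -0.17 (adjusted p = 0.0739).

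Hif3a, the alpha subunit whose splice forms include inhibitors of the other two, did not pass. It lay between 5.24 and 5.72 in hypoxic lungs (median 5.51) against 5.42 to 5.79 in normoxic lungs (median 5.52), with full overlap apart from 2 hypoxic lungs below the lowest normoxic one. The difference was -0.06 (95% confidence interval -0.25 to 0.14, adjusted p = 0.825). Arnt, the constitutive partner that every HIF alpha subunit needs, averaged 8.56 ± 0.11 in hypoxia and 8.66 ± 0.10 in normoxia (SD, n = 6 each). Its difference was -0.10 (95% confidence interval -0.25 to 0.05, adjusted p = 0.519), and the groups overlapped.

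Whether the alpha subunits differed from each other in their response was tested directly, on the difference between each pair of genes within an array. The exact permutation test, two-sided and over every division of the 12 arrays into 6 and 6, can give no p below 0.00216, and p-values were adjusted over the 6 pairs compared. The response of Epas1 minus that of Hif1a was -0.61 (SE 0.08, exact p = 0.00216, adjusted p = 0.00649). That of Hif3a minus Hif1a was -0.43 (SE 0.10, exact p = 0.00216, adjusted p = 0.00649), so Hif1a differed in its response from both other subunits. Since Hif1a and Epas1 were already known to move in opposite directions, the first value is the size of that split rather than separate support for it. Hif3a minus Epas1 was 0.18 (SE 0.08, exact p = 0.0584, adjusted p = 0.0701) and did not pass.

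**Figure D2:**
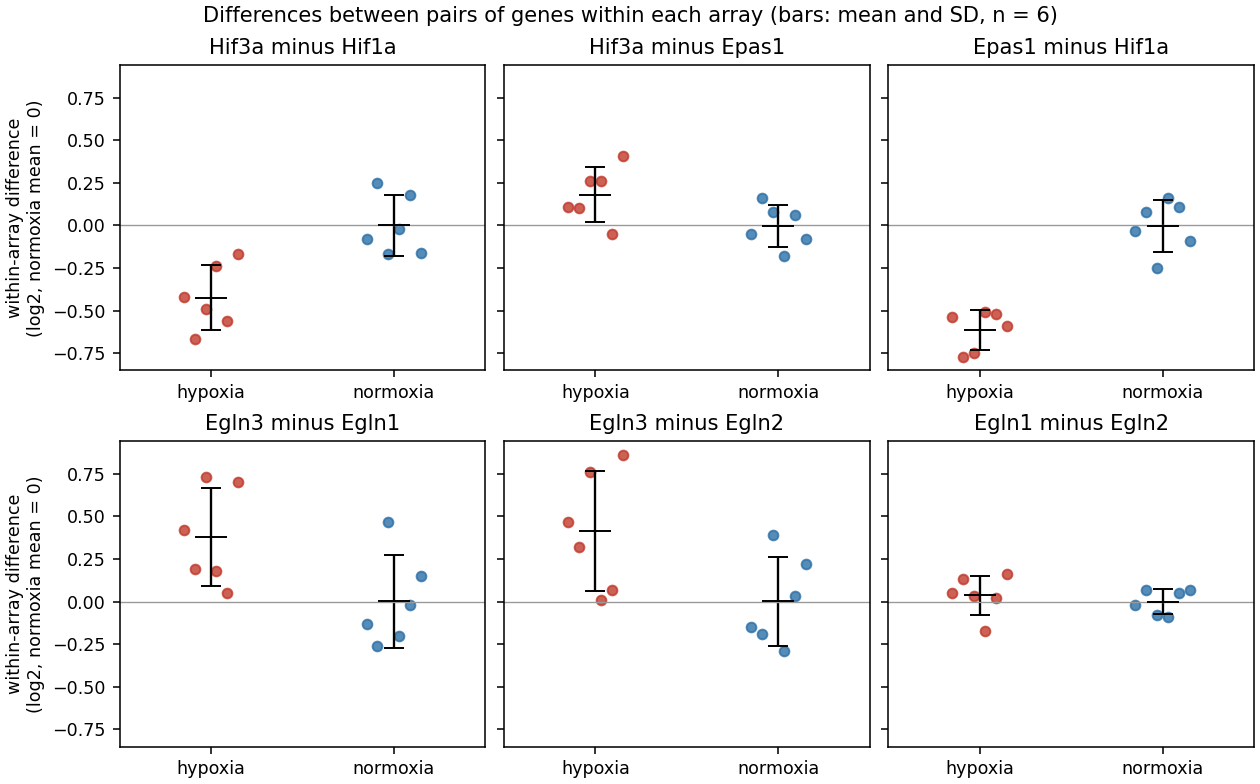
Within-array difference between 2 genes for the 6 pairs compared, as log2 distance from the normoxia mean of that pair, each point 1 array, bars the mean and SD, hypoxia left of normoxia. Epas1 minus Hif1a separates completely, at -0.77 to -0.51 in hypoxic lungs against -0.25 to 0.16 in normoxic lungs, while Egln1 minus Egln2 overlaps throughout.

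None of the prolyl hydroxylases passed the test. Egln3 (PHD3), the family member best known for induction by hypoxia, showed the widest difference of all 10 genes. Its level was 4.72 at the lowest, 4.97 at the median and 5.53 at the highest in hypoxic lungs, against 4.26, 4.56 and 4.85 in normoxic lungs. The groups overlapped, with 5 of 6 hypoxic lungs above the highest normoxic lung. The means were 5.08 ± 0.32 in hypoxia and 4.58 ± 0.23 in normoxia (SD, n = 6 each), a difference of 0.49 (SE 0.15, 95% confidence interval 0.18 to 0.81) or 1.41-fold, with an adjusted p of 0.0852.

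By size of change Egln3 ranked 548 among 22180 named genes, ahead of Hif1a at 949, and its spread was wide. The pooled SD of 0.28 exceeded that of 94.9% of named genes, whereas the typical named gene had 0.14. Its signal was dim, and a minimum mean level of 5 would have removed it. In a fit over only the clusters with a single gene symbol the adjusted p was 0.0405, for the same difference of 0.49. With the replicate number as a block, a number that nothing shows to pair these mice, it was 0.0357.

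Egln1 (PHD2), the main oxygen sensor that sets HIF-1α levels in normal oxygen, lay between 8.89 and 9.10 in hypoxic lungs (median 8.95) against 8.65 to 8.94 in normoxic lungs (median 8.91). The groups overlapped, with 3 hypoxic lungs above the highest normoxic one, and the difference was 0.12 (95% confidence interval -0.02 to 0.25, adjusted p = 0.401). Egln2 (PHD1), a mainly nuclear family member, lay between 8.31 and 8.60 in hypoxia (median 8.38) against 8.19 to 8.50 in normoxia (median 8.34). Its difference was 0.08 (95% confidence interval -0.07 to 0.23, adjusted p = 0.648).

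The responses of the 3 hydroxylases were compared pair by pair. Egln3 minus Egln1 was 0.38 (SE 0.16, exact p = 0.0476, adjusted p over the 6 pairs = 0.0701) and Egln3 minus Egln2 was 0.41 (SE 0.18, exact p = 0.0498, adjusted p = 0.0701), so neither passed after adjustment. Egln1 minus Egln2 was 0.04 (SE 0.06, exact p = 0.548, adjusted p = 0.548). These arrays therefore did not separate the response of Egln3 from those of Egln1 and Egln2 at this number of mice. Both pairs with Egln3 passed when hypoxia replicate 5 was left out (adjusted p = 0.039 for each), and likewise when normoxia replicate 3 was left out (adjusted p = 0.0216 against Egln1 and 0.039 against Egln2).

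**Figure D3:**
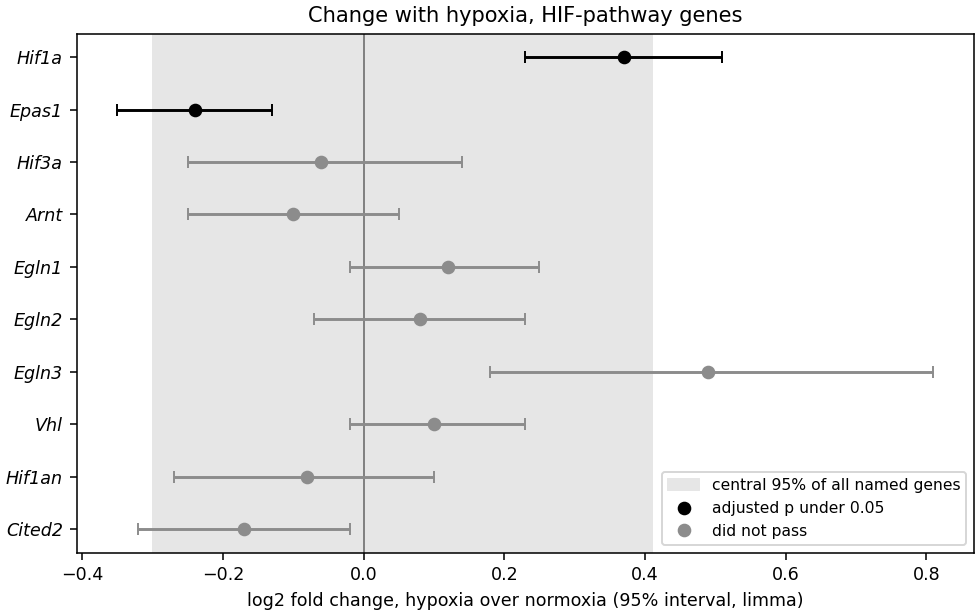
Log2 difference, hypoxia minus normoxia, for each of the 10 genes with its 95% confidence interval from limma, black where the adjusted threshold was passed and grey elsewhere, over a shaded band that holds the central 95% of named genes. Hif1a (0.37) and Epas1 (-0.24) passed the adjusted threshold, and Egln3 (0.49) has the widest interval, 0.18 to 0.81.

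Hif1an, which encodes the asparaginyl hydroxylase FIH, averaged 6.51 ± 0.11 in hypoxia and 6.60 ± 0.18 in normoxia (SD, n = 6 each), a difference of -0.08 (95% confidence interval -0.27 to 0.10, adjusted p = 0.705). Vhl, the subunit that recognises hydroxylated HIF, averaged 6.16 ± 0.08 in hypoxia and 6.05 ± 0.09 in normoxia. Its difference was 0.10 (95% confidence interval -0.02 to 0.23, adjusted p = 0.428). The groups overlapped for both genes.

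Cited2, which competes with HIF alpha for p300 and CBP, was 8.99 at the lowest, 9.12 at the median and 9.21 at the highest in hypoxic lungs, against 9.09, 9.30 and 9.40 in normoxic lungs. The groups overlapped, with 3 hypoxic lungs below the lowest normoxic one. The means were 9.11 ± 0.10 in hypoxia and 9.28 ± 0.11 in normoxia (SD, n = 6 each), a difference of -0.17 (95% confidence interval -0.32 to -0.02). Its adjusted p of 0.216 did not pass, so no change was called for this gene.

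Outside the 10 genes, the machinery around them was followed in lists. Of 4 partners of Vhl in its ubiquitin ligase, 3 were measured and 1 rose, Cul2, the scaffold cullin, at 7.41 to 7.62 in hypoxic lungs against 7.15 to 7.35 in normoxic lungs. Its difference was 0.21 (SE 0.05, adjusted p = 0.0474). That call was lost whichever of the 12 arrays was left out (difference 0.18 to 0.22), and with the replicate number as a block (adjusted p = 0.162). The adaptors Eloc and Elob differed by 0.30 (adjusted p = 0.238) and 0.11 (adjusted p = 0.385). The median over the 3 partners was 0.21.

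None of the 5 coactivators and CITED relatives passed, and their median was -0.12. Ep300, which encodes p300, lay between 9.28 and 9.47 in hypoxic lungs against 9.52 to 9.75 in normoxic lungs, a difference of -0.21 (adjusted p = 0.0638). Crebbp, which encodes CBP, lay between 10.05 and 10.21 in hypoxic lungs against 10.22 to 10.38 in normoxic lungs, a difference of -0.16 (adjusted p = 0.094). The groups did not overlap for either gene. After quantile normalisation both passed (adjusted p of 0.0381 for Ep300 and 0.0474 for Crebbp). With each array centred on its median neither passed (adjusted p of 0.138 for Ep300 and 0.194 for Crebbp). Neither passed in any of the 12 runs that left out 1 array. Ncoa1, Cited1 and Cited4 differed by -0.08, -0.12 and 0.13, with adjusted p-values of 0.496, 0.549 and 0.423.

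The relatives of the HIF genes did not pass either. Of 12 other bHLH-PAS genes, the family to which the HIF subunits belong, 11 were measured and none passed (median 0.03, range -0.18 to 0.13). The same held for 8 measured of 10 regulators of PHD or HIF protein stability (median -0.01, range -0.20 to 0.04; the median was 0.01 when each array was centred on its own median). Of 24 other 2-oxoglutarate oxygenases, the enzyme class of the hydroxylases, 21 were measured and none passed (median -0.06, range -0.21 to 0.03), with 3 above 0. Among 12 measured enzymes that make or use 2-oxoglutarate, succinate or fumarate none passed (median 0.06, range -0.20 to 0.17).

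By contrast 8 of 19 measured HIF target genes rose and none fell (42.1% called, beside 6.03% of all named genes), with a median of 0.34. The other 11 did not pass, and 14 of the 19 differences were above 0 (range -0.26 to 1.82). This list was chosen with earlier results of these data known, so its share called is a description and not a test. Edn1, which encodes the vasoconstrictor endothelin-1, averaged 9.94 ± 0.15 in hypoxia and 8.12 ± 0.19 in normoxia (SD, n = 6 each), a difference of 1.82 (adjusted p = 4.74e-07). The chemokine Cxcl12 rose by 1.18 and Bnip3, a mitophagy receptor, by 0.80. Pgk1 and Ldha, which encode glycolytic enzymes, rose by 0.49 and 0.43, and the stress-response gene Ndrg1 by 0.65. Higd1a, a mitochondrial protein gene, rose by 0.36 and Slc2a1, the glucose transporter, by 0.34. Vegfa, chosen for mention after its values were seen, averaged 11.15 ± 0.04 in hypoxia and 11.30 ± 0.08 in normoxia. Its difference of -0.15 did not pass (adjusted p = 0.127). It passed after quantile normalisation (adjusted p = 0.042), but not with each array centred on its median (adjusted p = 0.26). Nor did it pass in any of the 12 runs that left out 1 array.

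Markers of other cells in the lung also moved beside these target genes. Of 7 smooth muscle markers 6 rose, with a mean level of 9.32 to 9.75 in hypoxic lungs against 8.62 to 8.92 in normoxic lungs, and of 7 fibroblast and pericyte markers 3 rose (8.95 to 9.04 against 8.41 to 8.72). All 5 measured of 10 erythroid markers rose (7.23 to 7.99 against 6.76 to 7.16). Of 6 club and secretory airway markers 2 rose (Muc5b by 1.51 and Scgb3a1 by 1.24) and 1 fell (Cyp2f2), with a mean level of 10.98 to 11.86 in hypoxic lungs against 10.64 to 11.12 in normoxic lungs. Of 8 T and NK cell markers 1 fell (Cd3g, by 0.61) and all 8 differences were below 0, with a mean level of 6.30 to 6.66 in hypoxic lungs against 6.62 to 7.14 in normoxic lungs. Among the remaining lists, 1 of 6 alveolar type 1 markers fell, and none of the alveolar type 2, ciliated airway, B cell or heart and thymus markers passed, apart from 1 ciliated marker higher with each array centred on its median and 1 alveolar type 2 marker lower after quantile normalisation. Their part in the changes of the HIF targets was not tested.

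**Figure D4:**
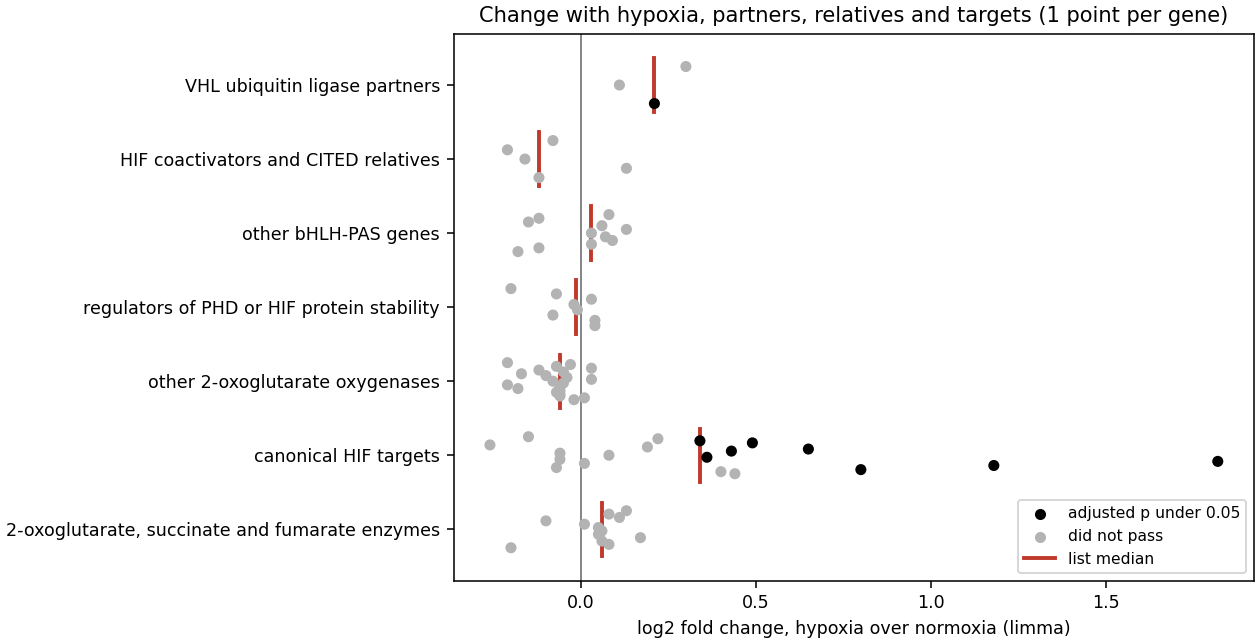
Log2 difference, hypoxia minus normoxia, of each measured gene in the lists around the HIF system, black for genes past the adjusted threshold, grey for the others, and a red bar at each list's median. The canonical HIF targets hold 8 black points and a median of 0.34, while the other lists have medians between -0.12 and 0.21 and Cul2 as their single black point.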

How the data were processed

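RNA from 12 left lungs (6 hypoxia, 6 normoxia, 1 mouse and 1 array each) was amplified to complementary DNA. That DNA was labelled with biotin and hybridised to Mouse Gene 2.0 ST arrays. The deposited log2 values were made by the authors with RMA in Affymetrix Expression Console. No version of these tools and no genome build for the array was stated in the sources used. Of 41345 rows, 190 control rows were left out. Of 41155 clusters, 23521 had 1 gene symbol in the platform annotation, 1820 had several and 15814 were unnamed here, so that 22180 genes were named. Differences between hypoxia and normoxia were fitted in limma 3.58.1 (R 4.3.3, lmFit and eBayes, group alone), two-sided, adjusted by Benjamini-Hochberg over all clusters, threshold 0.05. The script was tested on simulated data. Pairs of genes were compared by exact permutation over arrays, adjusted over 6 pairs. The number of arrays limits the precision.

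All 10 genes are named. For each of the 10 that passed, the 3 nearest profiles are given, with Gm and Rik names left out. Of each list, up to 6 genes past the threshold were chosen by smallest p, with the VHL ligase and coactivator lists in full. Higd1a and Slc2a1, beyond that rule, were added after their values were seen. The genes and lists were chosen with earlier results of these data known. Alternatives changed the test, variance model, array weights, scaling, filters, threshold, cluster per gene and arrays left out. Promoter windows came from RefSeq (GRCm38.p6). Nothing shows that the replicate numbers pair mice across groups.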

Additional observations from a re-analysis of the deposited data

Results flagged for a closer look

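Egln2 on hypoxia replicate 4 was set apart, at 8.60 while the other 5 hypoxia arrays lay between 8.31 and 8.41. Its gap to the next array was 0.655 of the group's whole range, past Dixon's critical value for 6 samples at 95%. In all 20 groups of 6 arrays (10 genes in each condition) were searched, and chance sets apart about 1 in 20. Leaving out that array did not bring Egln2 past the threshold.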

How the results depend on the processing

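Hif1a passed in all 12 runs that left out 1 array (0.34 to 0.40) and under all 9 alternatives of test, scaling, filter and cluster (0.36 to 0.39). Epas1 passed in all 12 (-0.26 to -0.22) and in 8 of 9, losing its call with the replicate block (-0.24, adjusted p = 0.081). Egln3 passed in 0 of 12 (0.40 to 0.56) and in 2 of the 8 that could be run, over clusters with 1 symbol (0.49, adjusted p = 0.0405) and with the replicate block (0.49, adjusted p = 0.0357). A minimum mean level of 5 removed it. The other 7 genes passed in none. The count of 2 genes called held in every run that left out 1 array (2 to 2). It was 3 over clusters with 1 symbol, 1 at an adjusted p of 0.01 and 1 with a minimum of 1.2-fold (Hif1a in both). With the replicate block it was also 2, namely Hif1a and Egln3. Over all clusters the count of 1840 was 961 with the replicate block, 800 at an adjusted p of 0.01 and 1374 to 1577 with 1 array left out. Nothing showed that replicate numbers pair the arrays (same-number correlations -0.0103 to 0.0723, and 1 of 6 hypoxia arrays closest to its own number). With 1 array left out, the pair differences were -0.48 to -0.38 for Hif3a minus Hif1a and -0.66 to -0.58 for Epas1 minus Hif1a, past the threshold in all 12 runs. They were 0.14 to 0.23 for Hif3a minus Epas1 (1 run passed, without hypoxia replicate 5, adjusted p = 0.039), 0.31 to 0.47 for Egln3 minus Egln1 (2 passed), 0.32 to 0.49 for Egln3 minus Egln2 (2 passed) and 0.01 to 0.08 for Egln1 minus Egln2 (0 passed). Comparisons of Hif1a with macrophage and monocyte genes (0.25) or neutrophil genes (0.07), and of Epas1 with endothelial genes (-0.14), were added after seeing the data. With the replicate block, Slc2a1 (adjusted p = 0.0833) and Higd1a (0.063) lost their calls. Ep300 and Crebbp passed under 5 and 4 alternatives, and Vegfa under 3. Ep300, Crebbp and Vegfa passed in none of the 12 runs that left out 1 array, whereas Slc2a1 and Higd1a passed in all 12. The causes were not tested. These arrays read transcripts, so protein stability and enzyme activity are not covered.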
